A study of Mus musculus with 6 samples.

Results

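The genes described here are 8 targets of the transcription factor Nrf2, namely Hmox1, Nqo1, Gclc, Gclm, Slc7a11, Srxn1, Txnrd1 and Osgin1, and the metallothionein genes Mt1 and Mt2. They were chosen by name, and each of the 10 names matched 1 of the 53797 genes in the deposited comparison of MLO-Y4 cells with and without low-intensity pulsed ultrasound (LIPUS). MLO-Y4 is a murine line with osteocyte-like features, grown in α-MEM with fetal bovine serum. The LIPUS group held 3 cultures stimulated for 20 min at 1.5 MHz and 30 mW/cm2, and the Control group held 3 cultures tagged as untreated, although the protocol text attached to them also describes the stimulation. RNA was taken 30 min after stimulation and read by stranded mRNA sequencing. Per the methods, both groups shared six-well plates, with transducers plugged in under 3 wells and unplugged under the other 3 wells. The table gives 1 expression value per gene and group, in FPKM (sequenced fragments scaled to transcript length and to the size of the library), pooled over the 3 cultures. The study describes the sequencing as repeated independently on separate RNA samples in its results, while its statistics section excepts it from the repeated experiments. A nominal read depth is given, but the table holds no counts. Values of single cultures, their spread and the reads behind each value are therefore not known here, and no difference below carries a test.

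Nrf2 is held in the cytoplasm by Keap1, which passes it to a Cul3 ubiquitin ligase for degradation. Oxidants and electrophiles modify cysteines of Keap1, and Nrf2 then accumulates, pairs with a small Maf protein (Maff, Mafg or Mafk) and binds antioxidant response elements, for which the repressor Bach1 competes. Its targets make glutathione, reduce thioredoxin, break down heme and reduce quinones. Metallothioneins are small cysteine-rich proteins that bind zinc and copper. Their genes respond to the zinc sensor Mtf1 through metal response elements, and to oxidants and glucocorticoids.

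The promoters of 5 of these genes are shown because they hold letters of the elements through which such genes are known to respond. Each is the 250 bases before a RefSeq start of transcription in GRCm38.p6, on the gene's strand, 5′ to 3′. Capitals mark the core of the antioxidant response element (TGACNNNGC), the AP-1 site (TGACTCA or TGAGTCA) or the core of the metal response element (TGCACNC or TGCGCNC), searched on both strands. The windows lie at chr2:152105274-152105523 for Srxn1, chr10:82858956-82859205 for the second start of Txnrd1, chr3:122245307-122245556 for Gclm, chr8:94178839-94179088 for Mt1 and chr8:94172368-94172617 for Mt2, all on the plus strand.
Srxn1: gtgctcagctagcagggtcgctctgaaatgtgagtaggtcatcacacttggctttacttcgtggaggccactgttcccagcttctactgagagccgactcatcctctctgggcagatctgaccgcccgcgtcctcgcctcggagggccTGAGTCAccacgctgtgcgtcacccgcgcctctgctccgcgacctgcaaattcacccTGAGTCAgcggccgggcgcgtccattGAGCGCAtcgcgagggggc
Txnrd1, second start: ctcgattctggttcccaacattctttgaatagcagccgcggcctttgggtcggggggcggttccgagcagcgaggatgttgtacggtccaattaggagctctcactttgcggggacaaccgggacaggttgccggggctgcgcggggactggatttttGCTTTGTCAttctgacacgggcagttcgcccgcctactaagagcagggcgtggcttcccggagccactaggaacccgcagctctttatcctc
Gclm: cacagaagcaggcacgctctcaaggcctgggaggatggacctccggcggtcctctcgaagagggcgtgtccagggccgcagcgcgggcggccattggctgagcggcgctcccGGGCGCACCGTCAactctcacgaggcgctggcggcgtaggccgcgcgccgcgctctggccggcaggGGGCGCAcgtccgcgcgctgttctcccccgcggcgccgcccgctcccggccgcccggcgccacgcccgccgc
Mt1: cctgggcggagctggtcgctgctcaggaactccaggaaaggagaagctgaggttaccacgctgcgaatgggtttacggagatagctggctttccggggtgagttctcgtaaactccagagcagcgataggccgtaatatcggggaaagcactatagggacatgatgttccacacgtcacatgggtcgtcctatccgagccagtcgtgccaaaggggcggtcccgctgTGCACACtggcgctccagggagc
Mt2: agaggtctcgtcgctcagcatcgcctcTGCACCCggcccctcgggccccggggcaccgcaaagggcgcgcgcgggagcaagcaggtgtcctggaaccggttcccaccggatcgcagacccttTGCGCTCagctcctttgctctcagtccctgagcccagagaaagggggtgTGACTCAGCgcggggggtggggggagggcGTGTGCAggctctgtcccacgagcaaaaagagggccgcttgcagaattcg

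RefSeq windows were matched by symbol for 8 of the 10 genes, giving 10 windows, since Txnrd1 has several starts. The letters of the antioxidant response element core stood in 3 of these windows and in 10.2% of all 32851 promoter windows of the same length. They lay at -134 to -126 in Gclm, at -92 to -84 before the second start of Txnrd1 and at -79 to -71 in Mt2, where -1 is the last base before the start. In Mt2 they overlapped an AP-1 site at -79 to -73. AP-1 letters also stood at -97 to -91 in Osgin1, and in Srxn1 both at -102 to -96 and at -45 to -39. A window with 2 or more AP-1 sites was found for 0.167% of all windows, and one with at least 1 for 4.46%. Metal response element letters were in 21.4% of all windows. Counted from the RefSeq starts, they stood in Mt1 at -23 to -17, and in Mt2 at -223 to -217, -128 to -122 and -50 to -44. They were also in Gclm and Srxn1. Bases after the starts were not searched. A match describes letters only and is not a bound site, and binding was not measured. The search took in no bases beyond these windows and no form of the antioxidant response element core other than TGACNNNGC. A window without letters therefore does not show that a gene lacks the element.

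**Figure D1:**
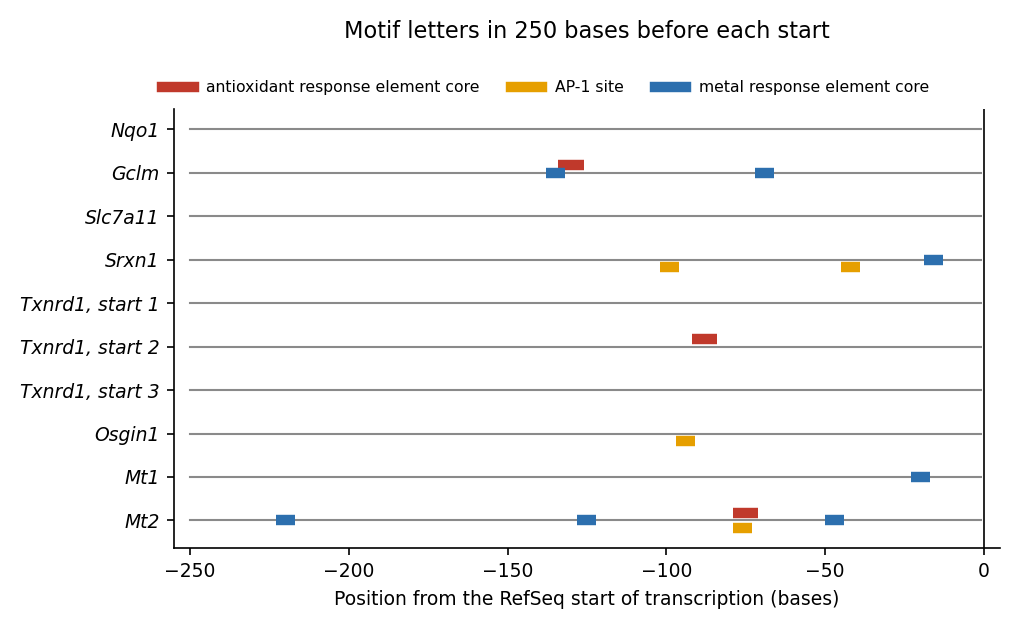
Matches to the 3 motifs (coloured bars) in the 250 bases before each of the 10 RefSeq starts of 8 genes, with the position from the start in bases on the x axis. Within these bases Mt2 carries matches to all 3 motifs, Srxn1 carries 2 AP-1 matches, and Nqo1, Slc7a11 and 2 of the Txnrd1 starts carry none. Bases farther from the starts were not searched.

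Of the 10 genes, the thiol repair genes Srxn1 and Txnrd1 and the heme oxygenase gene Hmox1 were higher with LIPUS by nearly the same factor, and Gclm was higher by less. Nqo1, Gclc, Osgin1, Mt1 and Mt2 lay closer together in the 2 groups. Cuffdiff, the program behind the table, gave the status OK (enough reads for its test) to 9 of the 10 genes and to 8145 genes in all, which are called tested genes here. Slc7a11 had the status NOTEST. Among the 9 tested genes, 6 were above and 3 below a log2 ratio (LIPUS over Control) of 0, with a median of 0.16. Over all tested genes the median log2 ratio was 0.00 and 50.8% were above 0. None of the 9 genes was 1.5-fold or more higher, against 4.70% of the tested genes, and 0 were as much lower, against 4.71%. At a lower threshold, a log2 ratio of 0.32 in place of the 0.58 of 1.5-fold, 3 of the 9 genes were higher, against 13.6% of the tested genes, and 0 were as much lower, against 13.4%. These shares describe the pooled values, and with no value of single cultures the spread behind them was not tested.

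**Figure D2:**
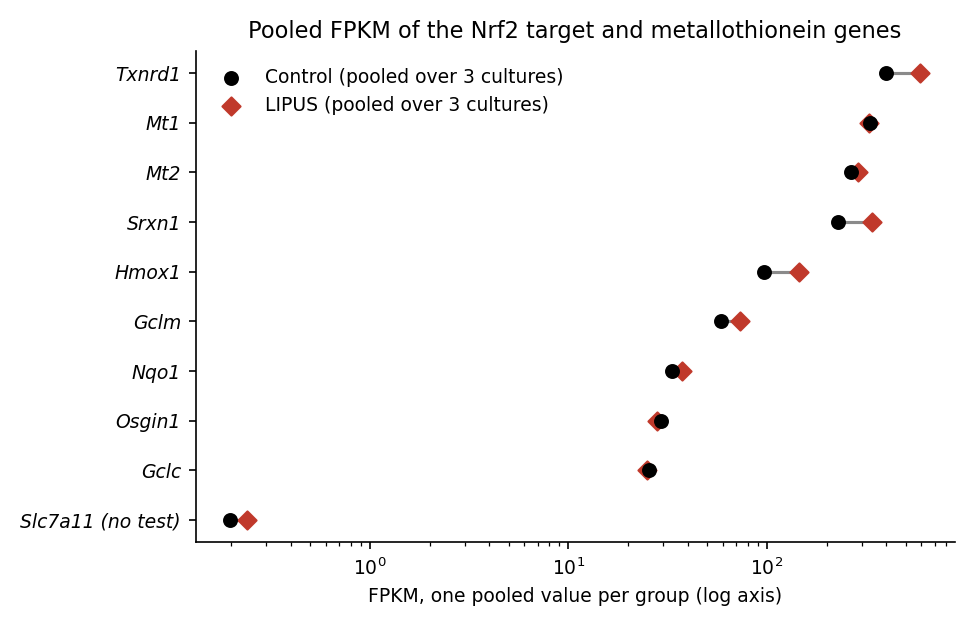
Pooled FPKM (log axis) of the 10 genes in Control (black circles) and LIPUS (red diamonds), 1 value per group without error bars since single cultures are not given. Txnrd1, Srxn1, Hmox1 and Gclm show the widest gaps among the 9 tested genes, while the symbols of Mt1, Gclc and Osgin1 nearly coincide.

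Txnrd1 (ENSMUSG00000020250, chr10:82833951-82897712, plus strand) encodes the cytosolic thioredoxin reductase, which uses NADPH to reduce thioredoxin. Its pooled level was 400 FPKM in Control and 592 FPKM with LIPUS, a ratio of 1.48-fold, or 0.57 on the log2 scale. It was the most abundant of the 10 genes in both groups, and stood at rank 220 in Control and rank 158 with LIPUS among all genes listed. Among the 215 tested genes with a geometric mean of 300 to 1000 FPKM, 12 (5.58%, Txnrd1 included) had a ratio at least as high. Eid3 overlaps Txnrd1 on the same strand and was listed at 2.22 FPKM in Control and 2.28 FPKM with LIPUS, far below Txnrd1.

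Srxn1 (ENSMUSG00000032802, chr2:152105516-152111376, plus strand) encodes sulfiredoxin, which restores peroxiredoxins that peroxide has overoxidised. It was at 228 FPKM in Control and 339 FPKM with LIPUS, a ratio of 1.48-fold, or 0.57 on the log2 scale. Its promoter is the window above with 2 AP-1 matches and no match to TGACNNNGC, the antioxidant response element core searched here. The second AP-1 match runs on as TGAGTCAgc, and a core with TGAG in place of TGAC was not searched. Among 647 tested genes between 100 and 300 FPKM, 17 (2.63%, Srxn1 included) had a ratio as high or higher.

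Hmox1 (ENSMUSG00000005413, chr8:75093621-75100589, plus strand) encodes heme oxygenase 1, which opens heme into biliverdin, carbon monoxide and iron. Its pooled level was 96.7 FPKM in Control and 144 FPKM with LIPUS. The ratio was 1.49-fold, or 0.58 on the log2 scale, just under the 1.5-fold line, and it passed that line when the groups were scaled to equal upper quartiles. In the 100 to 300 FPKM class, 16 of 647 tested genes (2.47%, Hmox1 included) had a ratio as high. Over all tested genes regardless of level, 4.89% reached the ratio of Hmox1, 5.16% that of Srxn1 and 5.17% that of Txnrd1.

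Nqo1 (ENSMUSG00000003849, chr8:107388225-107403206, minus strand) encodes the NAD(P)H quinone oxidoreductase and is commonly read as a marker of Nrf2 activity. It was at 33.4 FPKM in Control and 37.5 FPKM with LIPUS, a log2 ratio of 0.16. Of all tested genes, 27.1% had a ratio at least that high. Its ratio was thus lower than that of Hmox1, Srxn1, Txnrd1 and Gclm in the same pooled values.

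The next genes serve glutathione synthesis. Gclm (ENSMUSG00000028124, chr3:122245557-122270732, plus strand) and Gclc (ENSMUSG00000032350, chr9:77754535-77794485, plus strand) encode the modifier and the catalytic subunit of glutamate cysteine ligase, the rate-limiting enzyme. Gclm was at 58.8 FPKM in Control and 72.9 FPKM with LIPUS, 1.24-fold or 0.31 on the log2 scale. In the class of 30 to 100 FPKM, 218 of 2229 tested genes (9.78%, Gclm included) had a ratio as high. Gclc was at 25.5 FPKM in Control and 24.8 FPKM with LIPUS, a log2 ratio of -0.04. The modifier was thus 2.30 times the catalytic subunit in Control and 2.94 times with LIPUS, on the length-corrected FPKM scale. Of the 50-base stretches in the exons of Gclm, 3.92% also occur in other genes. Gm6061, which overlaps it on the same strand, was at 0.734 FPKM in Control and 0.660 FPKM with LIPUS.

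Slc7a11 (ENSMUSG00000027737, chr3:49892526-50443614, minus strand) encodes the cystine carrier of system xc-, which imports cystine, reduced in the cell to the cysteine of glutathione. It was at 0.197 FPKM in Control and 0.241 FPKM with LIPUS and was not tested. The log2 ratio was 0.29 on the plain scale and 0.05 after adding 1 FPKM to both groups, so at this level the pooled values give no usable difference. Its heavy chain partner Slc3a2, which also serves other amino acid carriers and is named after its value was seen, was at 114 FPKM in Control and 107 FPKM with LIPUS.

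Osgin1 (ENSMUSG00000074063, chr8:119434124-119446256, plus strand) encodes a growth inhibitor induced by oxidative stress. It was at 29.1 FPKM in Control and 27.8 FPKM with LIPUS, a log2 ratio of -0.07, and 60.8% of tested genes had a ratio at least as high.

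Mt1 (ENSMUSG00000031765, chr8:94179082-94180327) and Mt2 (ENSMUSG00000031762, chr8:94172664-94173568) are neighbours on the plus strand of chromosome 8, and Mt1 starts 5514 bases after the end of Mt2. Mt1 was at 330 FPKM in Control and 327 FPKM with LIPUS. Its log2 ratio was -0.01, and was 0.0033 when the groups were scaled to equal upper quartiles, so it has no settled direction. Mt2 was at 264 FPKM in Control and 287 FPKM with LIPUS, a log2 ratio of 0.12, which 33.4% of tested genes matched or passed. Mt2 was 0.801 times Mt1 in Control and 0.876 times with LIPUS. The central 90% of tested genes at 100 to 300 FPKM lay between log2 ratios of -0.32 and 0.42, a range that holds Mt2. In its class of 300 to 1000 FPKM, Mt1 lay inside the corresponding range of -0.22 to 0.57. Mt1 and Mt2 share none of their 50-base exon stretches with each other or with other genes. The antisense gene Gm45774, which overlaps Mt2, was at 0.279 FPKM in Control and 0.0853 FPKM with LIPUS. The other family members Mt3 and Mt4 were listed at 0 in both groups.

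The summed level of the 10 genes was 1466 FPKM in Control and 1853 FPKM with LIPUS. Txnrd1, Srxn1 and Hmox1, the genes with the highest ratios among the 10, made up 90.7% of that difference, a share that this choice makes large. Without the metallothioneins the sum was 872 FPKM in Control and 1239 FPKM with LIPUS, and the median log2 ratio of the 7 tested Nrf2 targets was 0.31. The metallothioneins alone summed to 594 FPKM in Control and 614 FPKM with LIPUS.

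**Figure D3:**
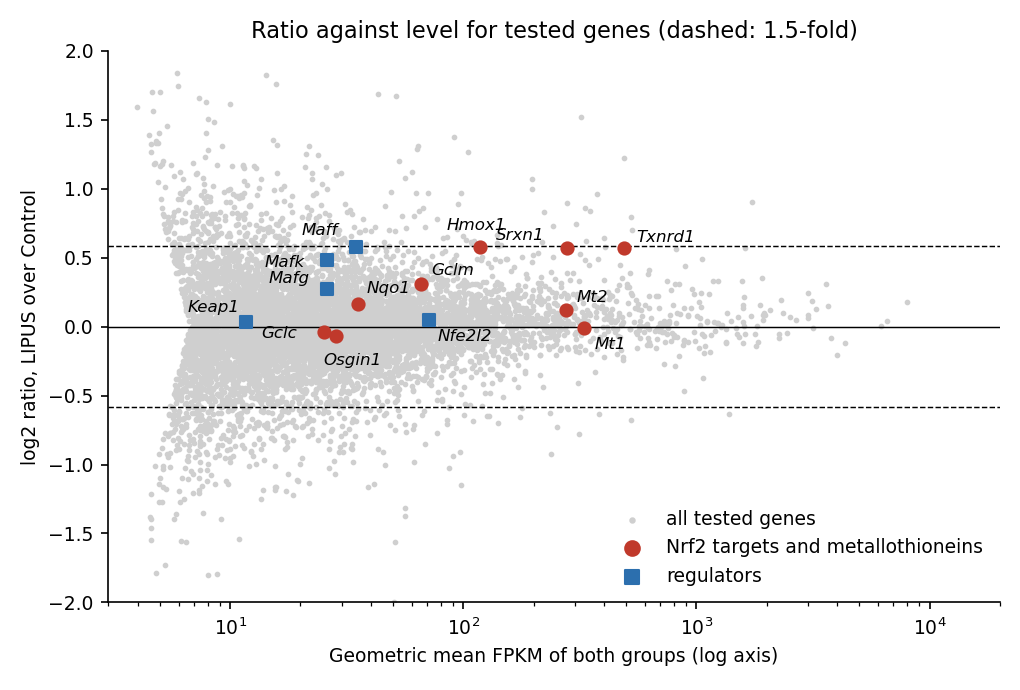
Log2 ratio (LIPUS over Control) against the geometric mean FPKM of both groups (log axis) for the tested genes (grey), the Nrf2 targets and metallothioneins (red) and Nrf2 regulators (blue squares), with 12 genes beyond 2 on the log2 scale not drawn. Hmox1, Srxn1, Txnrd1 and Maff lie just under the dashed 1.5-fold line at 0.57 to 0.58, whereas Mt1, Gclc and Osgin1 lie near 0.

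The regulators were described from a list of 10 genes, of which 9 were tested. Nfe2l2, which encodes Nrf2 itself, was at 70.0 FPKM in Control and 72.2 FPKM with LIPUS, a log2 ratio of 0.04. Keap1 was at 11.6 FPKM in Control and 11.8 FPKM with LIPUS. Bach1, the repressor that competes for the same elements, was not tested, at 4.83 FPKM in Control and 4.51 FPKM with LIPUS. These messages of the sensor, the factor and its repressor thus lay close together in the groups, while Nrf2 protein was not measured.

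The small Maf genes lay higher with LIPUS in the pooled values. Maff was at 28.3 FPKM in Control and 42.3 FPKM with LIPUS, a log2 ratio of 0.58 and the highest of the list. Mafk was at 22.1 FPKM in Control and 30.8 FPKM with LIPUS, and Mafg at 23.7 FPKM in Control and 28.6 FPKM with LIPUS, both named after their values were seen. The lowest ratio of the list was that of Cul3, with 53.1 FPKM in Control and 47.3 FPKM with LIPUS. In all, 8 of the 9 tested regulators were above 0 and 1 below, with a median log2 ratio of 0.24, against 0.00 for all tested genes. None was 1.5-fold higher or lower.

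Other genes of glutathione use were about evenly divided. Of 22 listed, 19 were tested, 10 above and 9 below 0, with a median log2 ratio of 0.03 that turned to -0.035 over all genes above 0. Chac1, which degrades glutathione and is induced by the unfolded protein response, was the gene on this list past 1.5-fold, at 8.30 FPKM in Control and 5.27 FPKM with LIPUS, a log2 ratio of -0.65. Chac1 is a low gene, and in the class under 10 FPKM the central 90% of ratios ran from -0.87 to 0.83. The highest ratio of the list was that of Glrx, which encodes glutaredoxin and is named after its value was seen, at 56.9 FPKM in Control and 78.9 FPKM with LIPUS.

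In the thioredoxin and peroxiredoxin system, 11 of 12 genes were tested, 5 above and 6 below 0, with a median log2 ratio of -0.05 that turned to 0.17 among genes of at least 10 FPKM. Prdx5, a peroxiredoxin of mitochondria, peroxisomes and cytosol, had the highest ratio, with 262 FPKM in Control and 378 FPKM with LIPUS, or 0.53. Txnip, the inhibitor of thioredoxin, had the lowest, with 10.6 FPKM in Control and 8.10 FPKM with LIPUS, or -0.39. Genes close to Txnrd1 in function, named after their values were seen, had mixed ratios. Txn1, its cytosolic substrate, was at 230 FPKM in Control and 260 FPKM with LIPUS, and Txnrd2, the mitochondrial reductase, was at 9.16 FPKM in Control and 7.62 FPKM with LIPUS. The third reductase gene, Txnrd3, which was on no list, had a log2 ratio of 0.49 at a geometric mean of 8.87 FPKM over the groups. Txnrd1 was 1.74 times Txn1 in Control and 2.28 times with LIPUS.

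Of the 6 genes that supply NADPH, all tested, 2 were above and 4 below 0, with a median of -0.17. Idh1, the cytosolic NADP-dependent isocitrate dehydrogenase, was the gene past 1.5-fold, at 14.2 FPKM in Control and 7.41 FPKM with LIPUS, a log2 ratio of -0.94. The higher genes were Me1 (malic enzyme) and Taldo1 (transaldolase), named after their values were seen. Me1 was at 30.7 FPKM in Control and 43.5 FPKM with LIPUS, and Taldo1 at 58.8 FPKM in Control and 81.6 FPKM with LIPUS.

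Among 13 genes of heme and iron handling and carbonyl detoxification, 11 were tested, 7 above and 4 below 0, with a median of 0.12 and none past 1.5-fold. Ftl1, the ferritin light chain that stores iron, had the highest ratio, with 1394 FPKM in Control and 1750 FPKM with LIPUS, or 0.33. Fech, which inserts iron into protoporphyrin to form heme, had the lowest, with 23.9 FPKM in Control and 18.4 FPKM with LIPUS, or -0.38. The biliverdin reductase genes, downstream of heme oxygenase, were chosen after their values were seen. Blvra was at 12.1 FPKM in Control and 14.9 FPKM with LIPUS, a log2 ratio of 0.30, and Blvrb at 74.9 FPKM in Control and 81.4 FPKM with LIPUS, or 0.12.

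Of the superoxide dismutases and catalase, 3 of 4 tested genes were above 0, with a median of 0.11. Sod3, the extracellular dismutase, was past 1.5-fold, at 5.94 FPKM in Control and 9.45 FPKM with LIPUS. Of 20 zinc and metal handling genes, 12 were tested, 7 above and 5 below 0, with a median of 0.10 that was 0.0005 among genes of at least 10 FPKM and turned to -0.07 over all genes above 0. The zinc importer Slc39a10 was past 1.5-fold, at 4.83 FPKM in Control and 7.27 FPKM with LIPUS. Mtf1 itself was not tested, at 5.85 FPKM in Control and 4.93 FPKM with LIPUS. Over the 7 lists, 2 of 72 tested genes (2.78%) were thus 1.5-fold or more higher and 2 (2.78%) as much lower, shares no greater than the 4.70% and 4.71% of all tested genes. Of these 4 genes, Chac1, Sod3 and Slc39a10 had a geometric mean under 10 FPKM, the class with the widest central 90% of ratios.

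**Figure D4:**
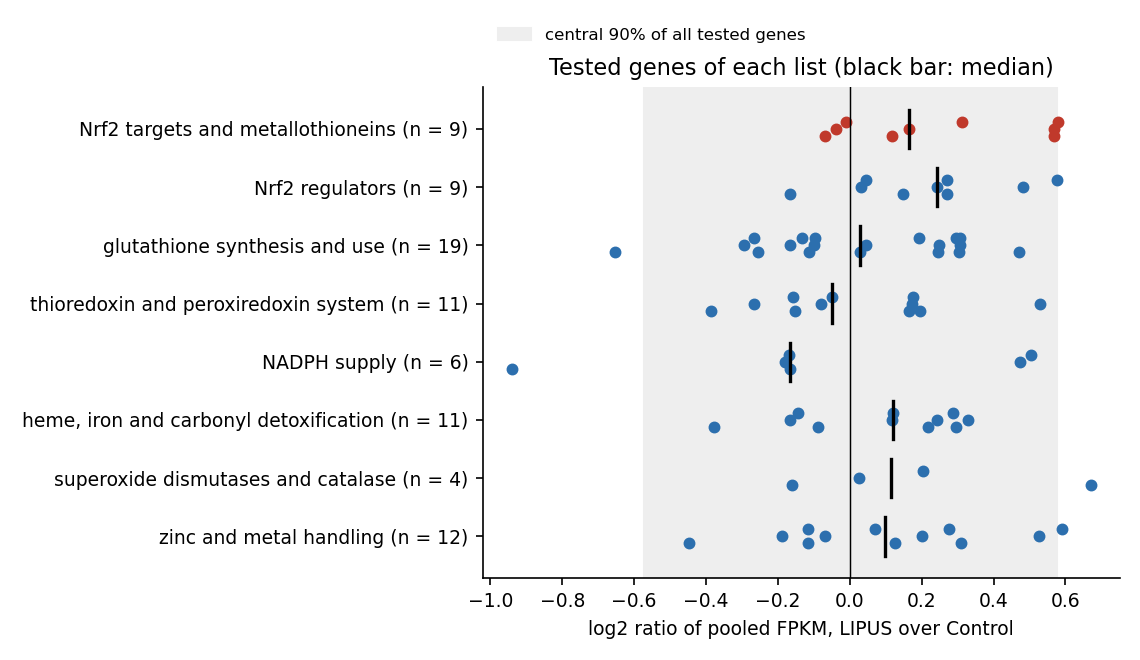
Log2 ratio (LIPUS over Control, x axis) of each tested gene, as points, in the Nrf2 target and metallothionein genes (red, n = 9 genes) and the 7 pathway lists (blue), with black bars for medians and grey for the central 90% of all tested genes, -0.57 to 0.58. Idh1, Chac1, Sod3 and Slc39a10 lie outside the grey band, as do Hmox1 and Maff at its edge (both 0.58).

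Facts of the whole table bear on these values. Of the 53797 genes, 37321 were listed at 0 in both groups. Of 8 osteocyte markers, Pdpn was at 295 FPKM in Control and 402 FPKM with LIPUS and Dmp1 at 3.04 FPKM in Control and 7.65 FPKM with LIPUS. Fbln7 was at 12.6 FPKM in Control and 21.4 FPKM with LIPUS. Gja1 lay slightly the other way, at 176 FPKM in Control and 170 FPKM with LIPUS. Of the 4 tested osteocyte markers, Dmp1 and Fbln7 were past 1.5-fold higher, against 4.70% of all tested genes. Phex was at 0 in Control and 0.190 FPKM with LIPUS, whereas Mepe, Sost and Fgf23 were listed at 0 in both, so these markers of mature osteocytes were not seen. The 6 osteoblast markers summed to 1215 FPKM in Control and 941 FPKM with LIPUS, with Ibsp at 0 in both. Of the 3 tested osteoblast markers, Runx2 (24.4 FPKM in Control, 14.8 FPKM with LIPUS) and Alpl (293 and 190 FPKM) were past 1.5-fold lower. Col1a1 (891 and 731 FPKM) was not. Over all tested genes, 4.71% were as much lower. The untested Bglap was at 0 in Control and 1.58 FPKM with LIPUS, and the untested Sp7 at 5.86 and 3.75 FPKM. The 4 adipocyte markers summed to 52.9 FPKM in Control and 30.5 FPKM with LIPUS, with Plin1 and Cfd at 0 in both. Nearly all of this sum was Fabp4, at 52.3 FPKM in Control and 30.4 FPKM with LIPUS. Fabp4 was the only tested gene of these markers and was past 1.5-fold lower. Adipoq was at 0.643 FPKM in Control and 0.193 FPKM with LIPUS. The 5 macrophage markers summed to 7.56 FPKM in Control and 2.14 FPKM with LIPUS, with Ptprc and Adgre1 at 0, and 3 of 4 endothelial markers were at 0 in both groups. The part of these differences in the ratios above was not tested, and fewer cells of a type and less RNA per cell cannot be told apart in bulk RNA. The study's principal component plot placed a Control culture apart from the other Control cultures, and since its own values are not in the table analysed here, no ratio can be given without it. Sound reaching the Control wells of a shared plate was not measured.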

How the data were processed

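Stranded mRNA libraries of 3 LIPUS and 3 Control cultures were read on an Illumina HiSeq as pairs of 100 bases. Per the submitters' processing notes and the methods, reads were cleaned by Trimmomatic 0.36 and mapped on GRCm38 by TopHat2 2.1.0 using Bowtie2 2.2.6.0, and expression came from Cufflinks (2.1.1 in the notes, 2.2.1 in the methods) and Cuffdiff on Ensembl transcripts. The authors deposited 1 pooled FPKM per gene and group, with a status. The deposited fold change, test statistic, p-value, q-value and significance columns were not used. FPKM normalises for transcript length and library size. The study's results describe independent repeats and RNA samples for the sequencing, which its statistics section excepts from the repeated experiments. A nominal read depth is given, but the table holds no counts, so the depth behind each value cannot be read from it.

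Ratios were LIPUS over Control with no pseudocount. Gene positions, overlaps and 50-base exon stretches came from GENCODE M21 (GRCm38), and promoter sequences from RefSeq (GRCm38.p6), whose starts can differ from those of GENCODE. Tables were made with Python 3.11.15, numpy 2.4.6, pandas 2.3.3 and matplotlib 3.10.9, and the steps were tested on simulated data. The genes and lists were chosen with earlier results of these data known. Named were the 10 genes, Nfe2l2, Keap1, Bach1, Mtf1 and, per list, genes past 1.5-fold or else the highest and lowest ratios. Outside this rule, Mafk, Mafg, Glrx, Slc3a2, Txn1, Txnrd2, Txnrd3, Me1, Taldo1, Blvra, Blvrb, the cell type markers, Mt3, Mt4 and overlapping genes were named after their values were seen. Alternatives were other pseudocounts, FPKM filters, scalings and fold thresholds.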

Additional observations from a re-analysis of the deposited data

How the results depend on the processing

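No paired analysis was possible because the table holds 1 pooled value per group, and leaving out single cultures could not be done for the same reason. Of 40 alternative values of the 10 genes, 38 kept their direction and moved by less than 0.1 on the log2 scale. The exceptions were Slc7a11 with 1 FPKM added (0.05) and Mt1 under upper quartile scaling (0.0033, against -0.01). Hmox1, Srxn1 and Txnrd1 stayed between 0.56 and 0.59 under all settings run. The upper quartile scaling moved every ratio by 0.01, and 1 gene (Hmox1, at 0.59) was then 1.5-fold higher in place of 0. At a threshold of 0.32 on the log2 scale in place of 1.5-fold, 3 genes were higher. The median log2 ratio of the 9 genes was 0.31 for those of at least 30 FPKM, 0.31 without Mt1 and Mt2, and 0.053 for Mt1 and Mt2 alone. The glutathione list had a median of -0.035 over all genes above 0 and 0.14 at 30 FPKM or more. The thioredoxin list had 0.027 over all genes above 0, 0.17 at 10 FPKM or more and 0.17 at 30 FPKM or more. The zinc list had -0.07 over all genes above 0 and 0.0005 at 10 FPKM or more. These filters change which genes enter, and no further cause was tested. Of 76 alternatives of medians and counts, 65 stayed within the tolerance, 6 moved and 5 turned direction.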

Other observations

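The motif letters shown for the Nrf2 target and metallothionein promoters were also set beside the ratios of the 6336 tested genes with a RefSeq window, as a description with no test. Of 233 genes with AP-1 letters in the 250 bases before a start, 19 (8.15%) were 1.5-fold or more higher with LIPUS and 11 (4.72%) as much lower. Of the 6103 genes without them, 251 (4.11%) were higher and 276 (4.52%) lower. The median log2 ratio was 0.01 in the AP-1 group and 0.01 without. The 10 genes with 2 or more AP-1 sites included 1 higher and 1 lower, with a median log2 ratio of -0.096. Of 915 genes with the core letters of the antioxidant response element, 45 (4.92%) were higher and 28 (3.06%) lower, against 225 (4.15%) higher and 259 (4.78%) lower among 5421 genes without them. Of the 67 genes with 2 or more such cores, 1 (1.49%) was higher and 0 lower, with a median log2 ratio of 0.01. Of 2208 genes with metal response element letters, 88 (3.99%) were higher and 89 (4.03%) lower, against 182 (4.41%) higher and 198 (4.80%) lower among 4128 genes without them. The 633 genes with 2 or more metal response element cores included 18 (2.84%) higher and 25 (3.95%) lower. Srxn1, Osgin1 and Mt2 belong to the AP-1 group and were not among its 19 higher genes.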
